A study of Saccharomyces cerevisiae with 6 samples.

Results

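The 34 genes described here encode the aminoacyl-tRNA synthetases of Saccharomyces cerevisiae and the cofactor ARC1. They were chosen by name: every probe whose annotated gene symbol was one of the 34 was taken, 1 probe for each gene, out of 5560 named genes and 6210 probes on the array. The rule used symbols and no measured value, although the list was drawn up with earlier results of these data known. A cytosolic group of 21 genes holds 15 genes classed here as cytosolic and 4 classed as serving both compartments (ALA1, GRS1, HTS1 and VAS1). It also holds GRS2, which is a paralog of GRS1, and ARC1. A mitochondrial group holds 13 genes. The genes CRS1 and YDR341C, for the cysteinyl- and the cytosolic arginyl-tRNA synthetases, are not members and are given with the related lists.

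An aminoacyl-tRNA synthetase joins an amino acid to its cognate tRNA at the cost of ATP, and the charged tRNA is then carried to the ribosome by an elongation factor. Yeast translates in the cytosol and in mitochondria, so most amino acids have a cytosolic and a mitochondrial enzyme, both encoded in the nucleus, while a few genes make both forms from alternative translation starts. Uncharged tRNA that builds up when charging falls short activates the kinase Gcn2, which raises translation of the activator Gcn4. Rapamycin binds the prolyl isomerase Fpr1 and inhibits TOR complex 1, the kinase that couples translation capacity to nutrient supply.

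Poly(A) RNA of wild-type strain S288c was compared on 6 arrays of 2 dyes each, all in the same dye orientation. A pair of arrays set cells in MDN with rapamycin (Cy5) against cells in MDN without it (Cy3), and another pair did so in YPD, a rich medium. A single array set MDN (Cy5) against YPD (Cy3), and a single array MDN (Cy5) against SCD (Cy3). The labels name no mutation and give MDN and SCD as abbreviations only, and the sources used here give neither the dose nor the time of rapamycin. They also do not say whether paired arrays came from separate cultures, so the spread behind each p-value may be purely technical.

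Values are log2 ratios, read as Cy5 over Cy3; this direction is likely from the dyes but not stated, and every direction below would turn over together if it were the other way. A ratio is relative to the other transcripts on the array, so total mRNA per cell was not measured. Probes with a value numbered 5834 to 6121 per array, and array medians lay between -0.09 and 0.07. The members' ratios ran from 0.28 to 2.35 and were kept to steps of 0.01, which moves the lowest by at most 0.03 on the log2 scale. Across the members with both values, which share arrays and are not independent replicates, the paired arrays correlated with r = 0.957 in MDN (34 genes) and r = 0.881 in YPD (33 genes). A gene is said to have risen or fallen where the limma fit over the 4 rapamycin arrays gave a Benjamini-Hochberg adjusted p under 0.05 across all 5488 features with a value on each. Errors after ± are standard errors of that fit with n = 2 arrays per medium. MSW1 and FRS2 each lacked a value on 1 array. MSW1 lacked it on YPD array 1 and so was not tested, which left 33 members, and FRS2 lacked it on the array of MDN against YPD.

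Rapamycin in MDN lowered most cytosolic synthetase transcripts and few mitochondrial ones. In the cytosolic group 18 of 21 genes fell, 10 of them at least 2-fold, 2 rose and ALA1 did not pass. In the mitochondrial group 1 of 12 tested genes fell and 1 rose. Over all features 54.1% passed, of which 23.3% fell and 30.8% rose as shares of all features. Those that fell at least 2-fold numbered 471 of 5488 features. The cytosolic median was -0.92, with individual genes from -1.76 to 0.64, and the mitochondrial median was -0.09, with genes from -0.27 to 0.35, beside a median of 0.06 for all features.

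**Figure D1:**
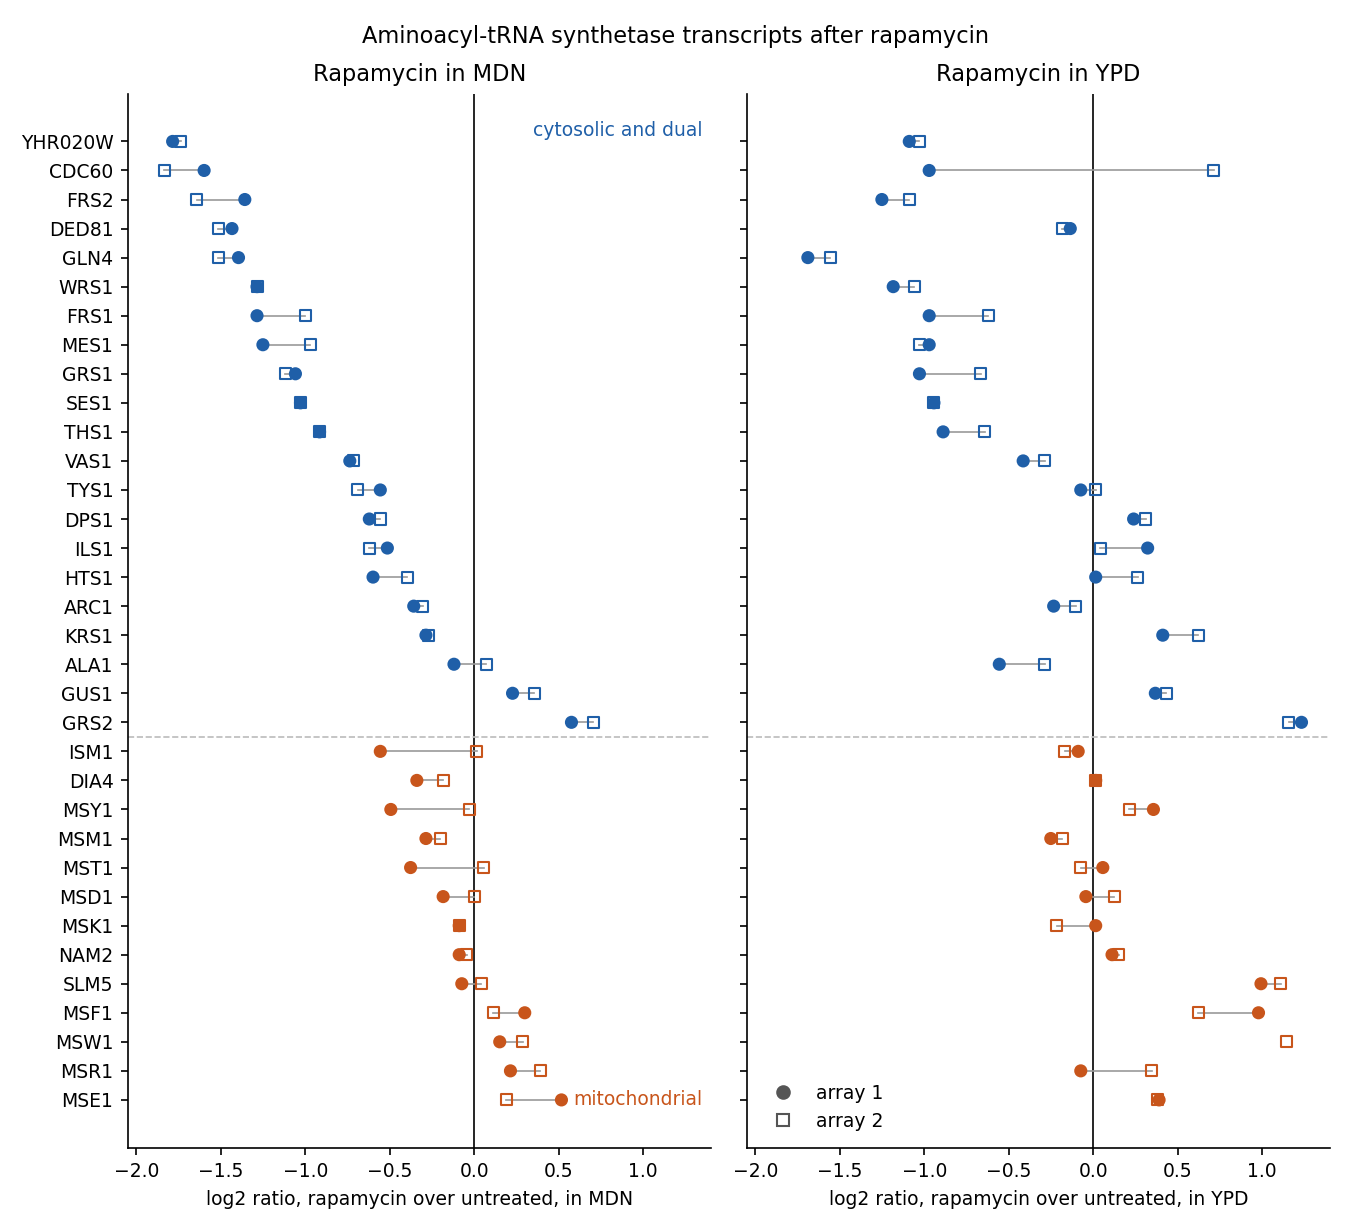
Log2 ratio of rapamycin over untreated cells (x axis) for each of the 34 genes (y axis), in MDN on the left and YPD on the right, with array 1 as a filled circle and array 2 as an open square joined by a line. Cytosolic and dual genes (blue) lie mostly left of 0 in MDN, down to -1.84, and mitochondrial genes (orange) lie between -0.56 and 0.52 there. CDC60 in YPD has its arrays on opposite sides of 0.

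The deepest declines in MDN were those of the prolyl, leucyl, phenylalanyl, asparaginyl and glutaminyl enzymes. YHR020W, which encodes the cytosolic prolyl-tRNA synthetase, read -1.79 and -1.74 on the 2 MDN arrays, a mean of -1.76 ± 0.08, which is 3.39-fold lower (limma adjusted p = 0.000116). CDC60, the leucyl-tRNA synthetase, which is also known as a leucine sensor upstream of TOR complex 1, read -1.60 and -1.84. Its mean was -1.72 ± 0.39 (limma adjusted p = 0.0168), and this wide error comes from YPD arrays that disagree, described below. DED81, the asparaginyl enzyme, read -1.43 and -1.51 (mean -1.47 ± 0.08, limma adjusted p = 0.000218). GLN4, the glutaminyl enzyme, read -1.40 and -1.51 (mean -1.46 ± 0.09, limma adjusted p = 0.00028). Each of these genes was below -1 on both arrays.

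The phenylalanyl-tRNA synthetase is built from 2 kinds of subunit, and the genes for both fell. FRS2, the alpha subunit gene, read -1.36 and -1.64, and FRS1, the beta subunit gene, read -1.29 and -1.0. Their means were -1.50 ± 0.11 and -1.14 ± 0.13, and the ranges of the arrays did not overlap. WRS1, the tryptophanyl enzyme, read -1.29 on both arrays and SES1, the seryl enzyme, read -1.03 on both. THS1, the threonyl enzyme, read -0.92 on both arrays. Adjusted p from limma was between 0.000328 and 0.00185 for these 5 genes.

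The methionyl and glutamyl enzymes form a complex with Arc1, a tRNA-binding protein that holds them in the cytosol and delivers tRNA to them, and the 3 genes did not move alike. MES1, the methionyl enzyme, read -1.25 and -0.97 in MDN, a mean of -1.11 ± 0.10 (limma adjusted p = 0.001). ARC1 fell less, with -0.36 and -0.30 (mean -0.33 ± 0.08, limma adjusted p = 0.0225). GUS1, the glutamyl enzyme, rose with 0.23 and 0.36 (mean 0.29 ± 0.08, limma adjusted p = 0.034), a call lost under median centring, with the MDN arrays alone and with any 1 of the 4 arrays left out. In YPD the order was the same: MES1 read -0.97 and -1.03, ARC1 -0.23 and -0.10, and GUS1 0.37 and 0.43. The arrays of the 3 genes did not overlap in either medium, but the differences between these genes were not tested. GUS1 also stood higher in MDN on both medium arrays, at 0.23 over YPD and 0.60 over SCD, and ARC1 was at 0.00 and 0.26.

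Smaller declines in MDN were found for the tyrosyl, aspartyl, isoleucyl and lysyl enzymes. TYS1, the tyrosyl enzyme, read -0.56 and -0.69. DPS1, the aspartyl enzyme, read -0.62 and -0.56, and ILS1, the isoleucyl enzyme, read -0.51 and -0.62. KRS1, the lysyl enzyme, was the cytosolic gene that fell least, with -0.29 and -0.27, a mean of -0.28 ± 0.09 just past the threshold (limma adjusted p = 0.0497). It did not pass without either MDN array or when features with 1 array per medium were admitted.

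Of the 4 genes classed here as serving both compartments, GRS1, VAS1 and HTS1 fell in MDN. GRS1, the glycyl enzyme, read -1.06 and -1.12. VAS1, the valyl enzyme, read -0.74 and -0.71, and HTS1, the histidyl enzyme, read -0.60 and -0.40. ALA1, the alanyl enzyme, read -0.12 and 0.07 and was the cytosolic member that passed in neither direction. GRS2, the little-used paralog of GRS1, rose with 0.58 and 0.70, a mean of 0.64 ± 0.08 (limma adjusted p = 0.00299), so the glycyl pair moved in opposite directions. Probes of these related genes may share signal, which was not tested.

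How many genes passed in MDN depended on having both MDN arrays. Without MDN array 1 or without MDN array 2, 7 cytosolic genes fell, the same 7 in both fits: DED81, FRS2, GLN4, MES1, SES1, WRS1 and YHR020W. Over all features the share that fell was then 5.86% or 6.39%, and no member of either group rose and no mitochondrial gene fell.

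Rapamycin in YPD left a more divided cytosolic group. Of 21 genes 11 fell, 5 of them at least 2-fold, 4 rose and 6 did not pass, against 32.0% lower and 34.3% higher over all features, 66.3% in all. Features that fell at least 2-fold numbered 633 of 5488. The median was -0.35 beside 0.01 for all features. A set of 10 genes fell in both media: FRS1, FRS2, GLN4, GRS1, MES1, SES1, THS1, VAS1, WRS1 and YHR020W. GLN4 was lowest, with -1.69 and -1.56, a mean of -1.62 ± 0.09 or 3.08-fold lower (limma adjusted p = 0.000117). FRS2 read -1.25 and -1.09, WRS1 -1.18 and -1.06, and YHR020W -1.09 and -1.03. SES1 read -0.94 on both arrays, and GRS1 -1.03 and -0.67. FRS1 read -0.97 and -0.62, THS1 -0.89 and -0.64, and VAS1 -0.42 and -0.29. In these 10 genes both YPD arrays lay below 0. VAS1 did not pass in YPD with the YPD arrays alone, without either MDN array or without YPD array 1. FRS1 did not pass there without YPD array 1.

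ALA1 fell in YPD, with -0.56 and -0.29 (mean -0.42 ± 0.11, limma adjusted p = 0.0191). This call was lost with the YPD arrays alone and with any 1 of the 4 arrays left out. The cytosolic genes that rose were GRS2, KRS1, GUS1 and DPS1. GRS2 read 1.23 and 1.16, a mean of 1.19 ± 0.08 or 2.29-fold (limma adjusted p = 0.000257). KRS1 read 0.41 and 0.62 (mean 0.52 ± 0.09, limma adjusted p = 0.00531), and DPS1 read 0.24 and 0.31 (mean 0.27 ± 0.08, limma adjusted p = 0.0293). The rise of DPS1 did not pass at equal scale, with the YPD arrays alone or with any 1 of the 4 arrays left out. GUS1 had a mean of 0.40 ± 0.08 (limma adjusted p = 0.0098). With any 1 of the 4 arrays left out, fewer cytosolic genes passed in YPD, and fewer of all features did so too. GUS1 no longer passed in YPD with either YPD array left out. The cytosolic median was -0.56 on YPD array 1 and -0.29 on YPD array 2, beside 0.01 and 0.0 for all features.

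The YPD arrays agreed poorly for CDC60. Array 1 read -0.97, lower than all but 12.2% of features, and array 2 read 0.71, higher than 83.1% of them. Its mean of -0.13 ± 0.39 did not pass (limma adjusted p = 0.788). Without YPD array 2 it fell with -0.97 (limma adjusted p = 0.0362), and without YPD array 1 it stood at 0.71 (limma adjusted p = 0.0542). These data therefore give CDC60 a direction in MDN and none in YPD.

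The response to rapamycin differed between media for 9 of the 33 tested members, and each of these 9 was lower in MDN than in YPD. Over all features 29.5% passed, 14.6% lower in MDN and 14.9% higher. The cytosolic median of the difference was -0.35 and the mitochondrial one -0.15, beside 0.02 for all features. The cytosolic genes were DED81, DPS1, GRS2, HTS1, ILS1, KRS1, TYS1 and YHR020W, and SLM5 was the mitochondrial gene.

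DED81 differed most among the cytosolic genes that passed, with -1.43 and -1.51 in MDN against -0.14 and -0.18 in YPD, a difference of -1.31 ± 0.11 (limma adjusted p = 0.00304). DPS1 and KRS1 fell in MDN and rose in YPD, with differences of -0.86 ± 0.11 (limma adjusted p = 0.00869) and -0.79 ± 0.13 (limma adjusted p = 0.014). ILS1 stood at 0.32 and 0.04 in YPD and HTS1 at 0.01 and 0.26, so that both genes lay above 0 there and below 0 in MDN. The difference was -0.75 ± 0.14 for ILS1 (limma adjusted p = 0.021) and -0.64 ± 0.15 for HTS1 (limma adjusted p = 0.0326). TYS1 read -0.07 and 0.01 in YPD, a difference of -0.59 ± 0.12 (limma adjusted p = 0.0232). YHR020W fell in both media but further in MDN, by a difference of -0.70 ± 0.11 (limma adjusted p = 0.0135), and GRS2 rose in both but less in MDN, with a difference of -0.55 ± 0.12 (limma adjusted p = 0.0262). For each of these 8 genes the MDN arrays did not overlap the YPD arrays. They were called on these same arrays, so this adds no support. By contrast the 9 remaining genes that fell in both media had differences between -0.37 and 0.17 that did not pass, which does not show that they responded alike.

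These calls need all 4 arrays: with any 1 of them left out, no feature at all passed for the difference by limma, although between 756 and 1047 features were then lower in MDN at an unadjusted p under 0.05. The YPD arrays were the wider ones, with median absolute deviations of 0.48 and 0.46 over all probes against 0.37 and 0.34 in MDN. With the arrays set to equal scale 14 cytosolic genes passed as lower in MDN in place of 8, and GRS2 did not. Over all features 15.8% were then lower, in place of 14.6%.

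**Figure D2:**
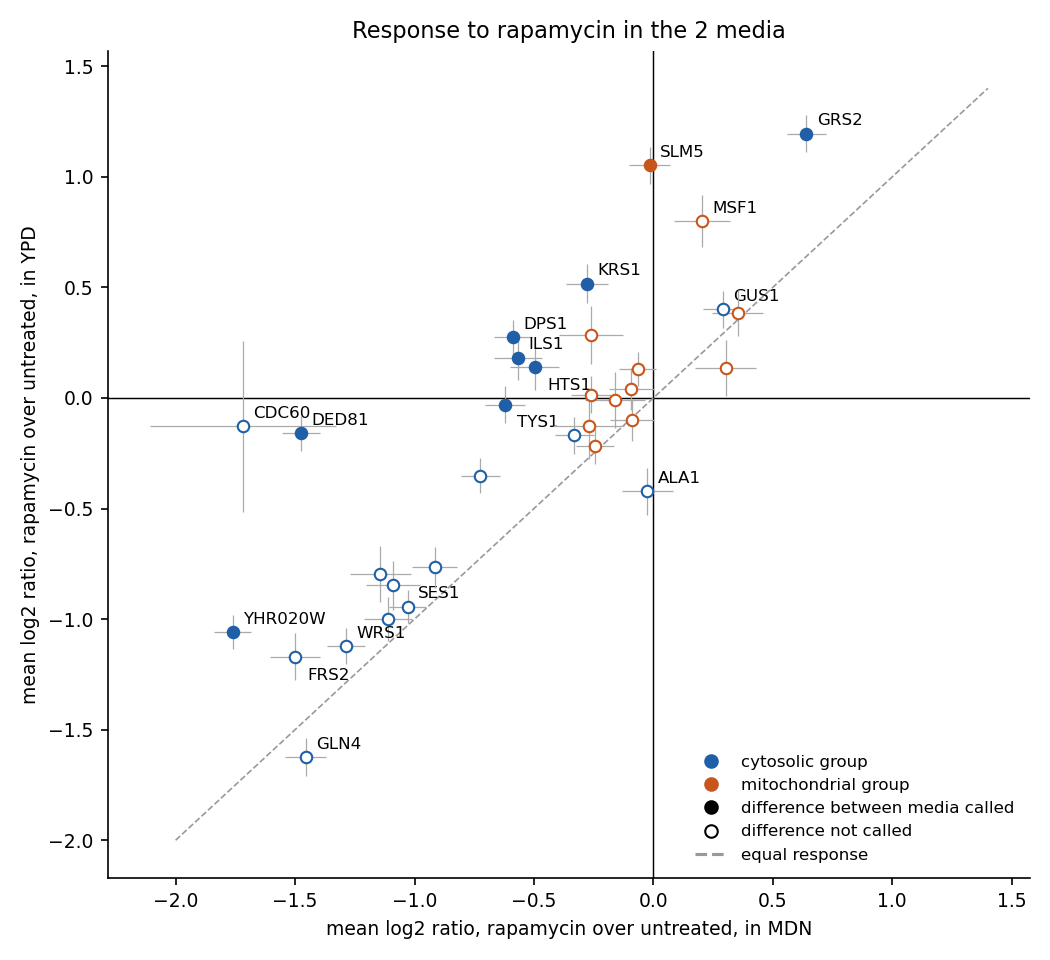
Mean log2 ratio of rapamycin over untreated cells in MDN (x axis) against YPD (y axis) for the 33 tested genes, with bars of 1 standard error from the limma fit (n = 2 arrays per medium) and a dashed line of equal response. Filled points are the 9 genes whose difference between media passed, and all of these lie above the line. A run of cytosolic genes from GLN4 to SES1 lies near it.

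Mitochondrial synthetase genes were mostly near 0 after rapamycin in MDN. MSE1, the mitochondrial glutamyl enzyme, rose with 0.52 and 0.19 (mean 0.35 ± 0.11, limma adjusted p = 0.04), and DIA4, a probable mitochondrial seryl enzyme, fell with -0.34 and -0.18 (mean -0.26 ± 0.08, limma adjusted p = 0.0478). Neither passed with any 1 of the 4 arrays left out. MSM1, the methionyl enzyme, read -0.29 and -0.20 and missed the threshold (limma adjusted p = 0.0515). MSR1, the arginyl enzyme, read 0.21 and 0.39, and MSW1, the tryptophanyl enzyme, 0.15 and 0.29. The MDN arrays of ISM1, the isoleucyl enzyme, read -0.56 and 0.01, those of MSY1, the tyrosyl enzyme, -0.49 and -0.03, and those of MST1, the threonyl enzyme, -0.38 and 0.06. These 3 genes had the widest gaps between replicates of the group. MSD1 (aspartyl), MSK1 (lysyl), NAM2 (leucyl, which also takes part in splicing of mitochondrial introns) and SLM5 (asparaginyl) stayed between -0.18 and 0.04.

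In YPD no mitochondrial gene fell and 3 of 12 rose, a share of 25%, below the 34.3% of all features that rose. SLM5 read 0.99 and 1.11, a mean of 1.05 ± 0.08 or 2.07-fold (limma adjusted p = 0.000405), against -0.07 and 0.04 in MDN. Its difference between media was -1.07 ± 0.12 (limma adjusted p = 0.00614). MSF1, the phenylalanyl enzyme, read 0.98 and 0.62 in YPD (mean 0.80 ± 0.12, limma adjusted p = 0.00302) and 0.30 and 0.11 in MDN. Its difference of -0.60 ± 0.17 missed the threshold (limma adjusted p = 0.0525) and passed under median centring and with a robust prior. MSE1 read 0.39 and 0.38 (mean 0.38 ± 0.11, limma adjusted p = 0.0253). The rise of MSE1 in YPD did not pass at equal scale or with either YPD array left out. That of MSF1 did not pass without YPD array 1. MSW1 had a single YPD value, 1.14 on array 2, the highest of the group on that array. The other mitochondrial genes lay between -0.25 and 0.36 on the YPD arrays.

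Enzymes for the same amino acid gave 13 pairs of a cytosolic gene and its mitochondrial counterpart, with MSF1 paired with both FRS1 and FRS2. On each MDN rapamycin array the cytosolic gene had the lower ratio in 12 of 13 pairs, by a median difference of -0.69 on array 1 and -0.84 on array 2. On the YPD arrays it was lower in 9 of 12 and 8 of 13 pairs, with medians of -0.83 and -0.57. CDC60 and NAM2, the leucyl pair, had the widest gap on MDN array 2, at -1.51 and -1.79 in MDN, but -1.08 and 0.56 in YPD, where the CDC60 arrays disagree. FRS2 and MSF1 were apart by -1.66 and -1.75 in MDN and by -2.23 and -1.71 in YPD, and FRS1 and MSF1 by -1.59 and -1.11 in MDN and by -1.95 and -1.24 in YPD. WRS1 and MSW1 differed by -1.44 and -1.57 in MDN and by -2.20 on the YPD array that measured both. DED81 and SLM5 were apart by -1.36 and -1.56 in MDN and by -1.13 and -1.30 in YPD. For the lysyl pair the sign turned with the medium: KRS1 was below MSK1 by 0.20 and 0.18 in MDN, read as differences of -0.20 and -0.18, and above it by 0.40 and 0.84 in YPD. The aspartyl pair did likewise, with DPS1 minus MSD1 at -0.44 and -0.56 in MDN and 0.28 and 0.19 in YPD. The glutamyl pair, GUS1 and MSE1, differed by -0.29 and 0.17 in MDN and by -0.02 and 0.05 in YPD, so that these genes rose together. These are differences of ratios between genes, described without a test.

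**Figure D3:**
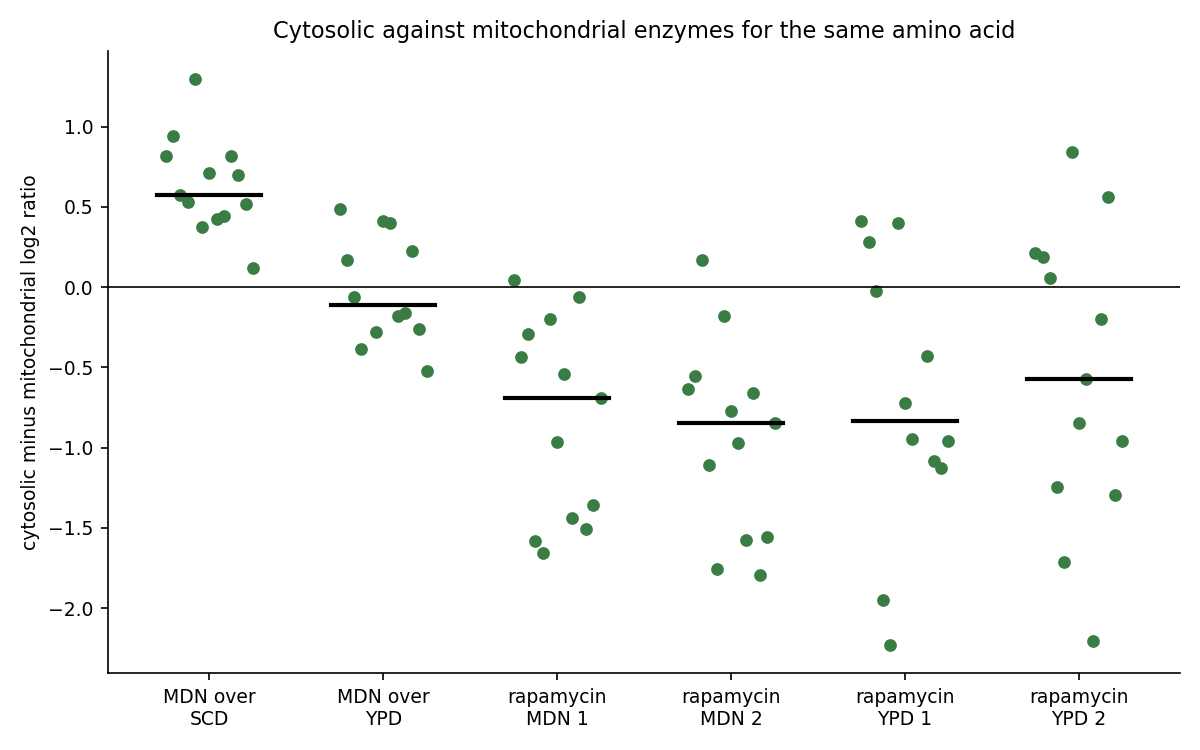
Cytosolic minus mitochondrial log2 ratio (y axis) for the pairs of enzymes of the same amino acid on each of the 6 arrays (x axis), with 1 point per pair and a bar at the median. All 13 points are above 0 for MDN over SCD, and 12 of 13 are below 0 on each MDN rapamycin array.

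On the array of MDN against YPD, where 1.96% of features were at least 2-fold lower and 3.93% at least 2-fold higher, no member reached 2-fold in either direction. At 1.5-fold no member passed either, against 9.76% and 9.51% of features. Cytosolic values ran from -0.49 for YHR020W to 0.30 for CDC60 with a median of -0.07, and mitochondrial values from -0.58 for ISM1 to 0.29 for MSE1 with a median of -0.06. Both medians were close to that of all features, -0.06. This array has no replicate and so no test.

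For MDN over SCD the medians of the groups lay on opposite sides of 0, although their ranges overlapped. The cytosolic median was 0.26, with 17 of 21 genes above 0, and the mitochondrial median was -0.36, with 11 of 13 below 0, 1 at 0 and 1 above. The median of all features was -0.09, with 3631 of 5901 below 0 and 2174 above. No member reached 2-fold, against 0.983% of features lower and 2.39% higher. At 1.5-fold FRS2 at 0.78 and GUS1 at 0.60 were higher in MDN, against 6.0% of features, and MSD1 at -0.60 was lower, against 4.07%. Next came DED81 at 0.52, MES1 at 0.44 and CDC60 at 0.41 on the cytosolic side. On the mitochondrial side MSY1 and MSW1 were both at -0.58, MSF1 at -0.51 and ISM1 at -0.47. The cytosolic genes below 0 were GRS2 at -0.18, SES1 at -0.17, WRS1 at -0.14 and GLN4 at -0.03, and the mitochondrial gene above 0 was MSE1 at 0.03. In all 13 pairs the cytosolic gene had the higher ratio, by 0.12 for SES1 and DIA4 up to 1.30 for FRS2 and MSF1, with a median of 0.58. A single array gives no spread between replicates. For scale, the median SD between the paired rapamycin arrays was 0.11 over all features.

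The difference of the medium arrays, in which MDN cancels, gives SCD over YPD. No member reached 2-fold, against 2.13% of features lower and 2.75% higher. At 1.5-fold DED81 at -0.84 and YHR020W at -0.82 were lower in SCD, against 8.96% of features, and MSW1 at 0.62 and MSF1 at 0.60 were higher, against 9.55%. The cytosolic median was -0.33 and the mitochondrial median 0.36, beside 0.01 for all features. For MDN over YPD the group medians were alike, at -0.07 and -0.06, so this split rests mainly on the MDN over SCD array. It carries the error of that array and is no second observation of the split. The value shares the MDN sample of both arrays only if the same RNA was used, which the labels do not say.

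**Figure D4:**
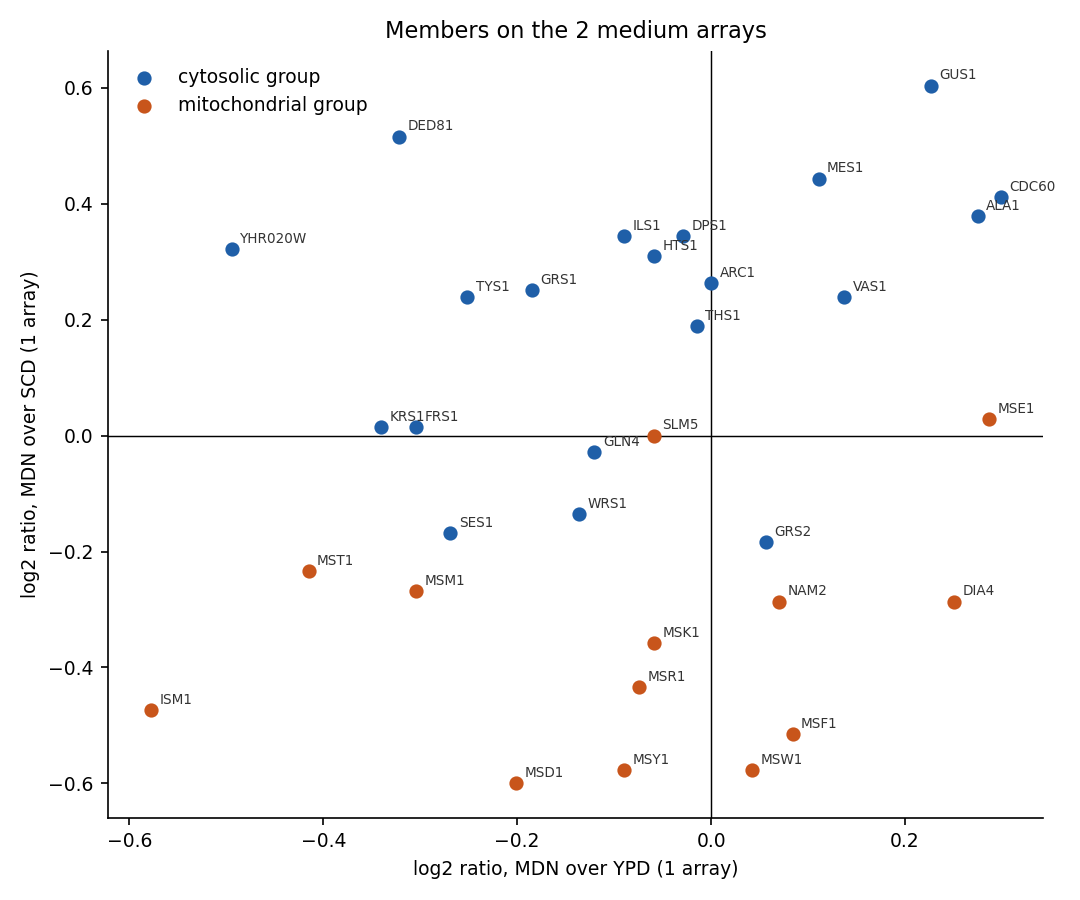
Log2 ratio of MDN over YPD (x axis, 1 array) against MDN over SCD (y axis, 1 array) for the 33 genes with both values. The groups overlap along the x axis, between -0.58 and 0.30, while on the y axis cytosolic genes (blue) reach 0.60 and mitochondrial genes (orange) go down to -0.60.

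Other genes that make, move or use charged tRNA were counted from lists of related genes. CRS1, the cysteinyl-tRNA synthetase, fell with -1.20 ± 0.12 in MDN (limma adjusted p = 0.00131) and -0.73 ± 0.12 in YPD (limma adjusted p = 0.00425). YDR341C, the arginyl-tRNA synthetase, stood at -0.23 ± 0.08 in MDN (limma adjusted p = 0.0512) and 0.03 ± 0.08 in YPD. AIM10, a mitochondrial prolyl-tRNA synthetase by similarity, was not measured on all 4 arrays. Of the cytosolic elongation factor genes 6 of 9 fell and 1 rose in MDN (median -1.24), and 7 fell and none rose in YPD (median -0.97). All features fell in 23.3% and 32.0% and had medians of 0.06 and 0.01. YEF3, which encodes the fungal elongation factor 3, was lowest at -2.22 ± 0.08 and -2.89 ± 0.08.

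Of 52 genes of tRNA processing and modification 27 fell and 3 rose in MDN, and 41 fell and 2 rose in YPD, with medians of -0.45 and -0.92. All features fell in 23.3% and rose in 30.8% in MDN, and fell in 32.0% and rose in 34.3% in YPD. Their difference between media ran opposite to that of the cytosolic synthetases: 22 were higher in MDN than in YPD and none lower (median 0.46), whereas 8 of 21 cytosolic synthetase genes were lower and none higher, beside 14.6% lower and 14.9% higher over all features. NCS2, which acts in thiolation of the wobble uridine, was lowest in that list at -4.08 ± 0.19 in MDN and -3.77 ± 0.19 in YPD. DUS3, a dihydrouridine synthase, stood at -3.0 ± 0.09 and -2.95 ± 0.09, and TRM8, a subunit of the tRNA guanine methyltransferase, at -2.12 ± 0.31 and -2.98 ± 0.31. In the tRNA export list CEX1 fell in MDN (-0.38 ± 0.09) and LOS1, the main exportin for tRNA, rose in YPD (0.96 ± 0.17), and LOS1 was lower in MDN than in YPD by a difference of -1.12 ± 0.25 (limma adjusted p = 0.0282). These were the only calls among the 4 genes in the 3 comparisons.

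Ribosomal protein genes had lower medians than the synthetases of their compartment in both media. Of 128 tested cytosolic ribosomal protein genes 127 fell in MDN and 126 in YPD, with medians of -4.32 and -3.56. Their array values went down to -6.64 in MDN, where ratio steps of 0.01 are coarse on the log2 scale, so these depths are less precise than the members'. Like the cytosolic synthetases they were mostly lower in MDN where the media differed: 54 lower and 1 higher (median -0.67), beside 14.6% and 14.9% of all features. Of 61 mitochondrial ribosomal protein genes 24 fell in each medium, 3 rose in MDN and 4 in YPD, with medians of -0.22 and -0.14. That is 39.3% of them, against 23.3% of all features lower in MDN and 32.0% in YPD. They stood at a median of -0.47 for MDN over SCD, close to the -0.36 of the mitochondrial synthetases on that array. Of them 63 of 64 were below 0, beside 3631 of 5901 features. Of the mitochondrial translation factor genes 2 of 7 fell and 1 rose in MDN, and 3 fell and 1 rose in YPD, beside 23.3% lower and 30.8% higher over all features in MDN and 32.0% and 34.3% in YPD. TUF1, the mitochondrial elongation factor Tu, fell in MDN with -0.85 ± 0.09 and stood at 0.07 ± 0.09 in YPD, a difference of -0.92 ± 0.13 (limma adjusted p = 0.011). MEF2 went the other way: it rose in MDN with 0.81 ± 0.12 and stood at 0.05 ± 0.12 in YPD, a difference of 0.76 ± 0.17 (limma adjusted p = 0.0286). MRF1 rose in YPD with 0.66 ± 0.11 (limma adjusted p = 0.00409). For the difference between media 1 of these 7 genes was lower in MDN and 2 were higher, beside 14.6% and 14.9% of all features. HER2, a subunit of the amidotransferase that makes mitochondrial glutaminyl-tRNA, rose with 0.43 ± 0.10 and 0.37 ± 0.10, and GTF1, another subunit, stood at -0.15 ± 0.10 and -0.17 ± 0.10. PET112, of the same list, lacked a value on YPD array 2 and was not tested.

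Of the genes that sense uncharged tRNA, GCN2 itself lacked a value on the MDN rapamycin arrays and was not tested. GCN1 and GCN20, which activate Gcn2, fell in MDN with -0.50 ± 0.11 and -0.50 ± 0.09, and GCN1 fell in YPD with -0.59 ± 0.11. Over all features 23.3% fell and 30.8% rose in MDN, and 32.0% fell and 34.3% rose in YPD. GCN4 rose with 0.28 ± 0.09 in MDN (limma adjusted p = 0.0473) and 0.80 ± 0.09 in YPD (limma adjusted p = 0.00114), a difference of -0.52 ± 0.13 (limma adjusted p = 0.0352). GCN4 is regulated mainly in translation, which transcript ratios do not measure.

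**Figure D5:**
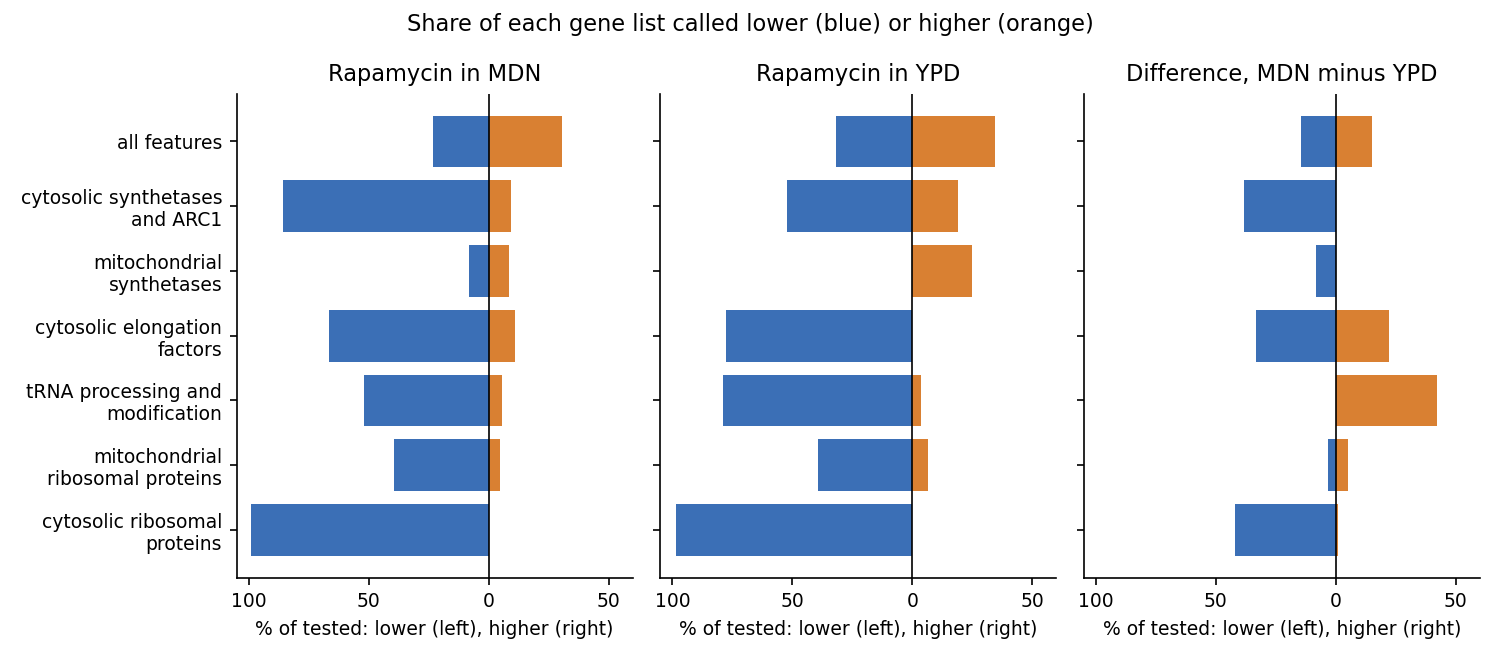
Share of the tested genes of each list (y axis) that were lower (blue, left) or higher (orange, right) by limma at an adjusted p under 0.05, in percent (x axis), for rapamycin in MDN, in YPD and for the difference MDN minus YPD. Cytosolic synthetases and ARC1 had 18 of 21 genes lower in MDN and 11 of 21 in YPD, and the tRNA processing list is the one with most genes higher in the difference panel, 22 of 52.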

How the data were processed

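The deposited table held the authors' log2 ratios for 6210 probes on 6 arrays. The log2 scale was found from the values: 100.0% of ratios were whole multiples of 0.01 (tolerance 0.0001). No source used here names the scanner, background correction or normalization, so the way of centring stays unknown. Probes were named from the platform annotation and probes of a gene averaged. Using limma 3.58.1 (R 4.3.3), a model of 1 mean per medium was fitted to the 4 rapamycin arrays and tested two-sided over 5488 features (4996 named), with 2 residual and 3 prior degrees of freedom. Median standard errors were 0.0964 for a mean and 0.136 for the difference, limited by the number of arrays. The medium arrays had no test, and members past 2-fold or 1.5-fold were counted. All 34 members were named, and of each related list up to 3 genes with the largest absolute mean over the 4 rapamycin arrays. IKI3, of the tRNA processing list, was not analysed here. Members and lists were chosen with earlier results of these data known, so lists are described by counts and medians beside all features. Sequences and a planned motif search were not used here. The procedure was tested on simulated data. Alternatives were other scalings, filters, priors, blocks and thresholds, and leaving out each array. Plots used matplotlib 3.10.9 under Python 3.11.15.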

Additional observations from a re-analysis of the deposited data

Results flagged for a closer look

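The response to rapamycin differed between media, by limma's test of the difference over 2 arrays per medium, for 9 of 33 tested members. All 9 were lower in MDN than in YPD. That is 27.3% of members, against 29.5% of all features in either direction, 14.6% lower and 14.9% higher. The share called was thus near that of all features. On the log2 scale, MDN minus YPD, the difference was -1.31 for DED81, -1.07 for SLM5, -0.86 for DPS1, -0.79 for KRS1, -0.75 for ILS1, -0.70 for YHR020W, -0.64 for HTS1, -0.59 for TYS1 and -0.55 for GRS2. DPS1 and KRS1 had both MDN arrays below 0 and both YPD arrays above 0. None of the 9 passed with any 1 of the 4 arrays left out.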

How the results depend on the processing

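For rapamycin in MDN, 17 or 18 cytosolic genes fell under every alternative that left out no single array and kept the adjusted p. By the rule of 2-fold with arrays of one sign 10 fell. Over all features those alternatives gave 20.7% to 29.5% lower and 26.1% to 31.2% higher, and the 2-fold rule gave 8.64% and 5.28%. With either MDN array left out that medium rests on 1 array, and the counts and shares are given above. The cytosolic genes that rose numbered 1 under median centring, the replicate block, the crossed block or with the MDN arrays alone, and 0 by the 2-fold rule. The mitochondrial genes that fell numbered 2 under median centring, equal scale or ratios floored at 0.05, and 0 with 1 array per medium admitted, with either block, with the MDN arrays alone or by the 2-fold rule; those that rose numbered 0 under median centring, the replicate block, the MDN arrays alone and the 2-fold rule. In YPD the 2-fold rule gave 5 cytosolic genes lower and 1 higher and 1 mitochondrial gene higher, and leaving out 1 array gave 2 to 3 cytosolic genes higher. For the difference, cytosolic genes lower in MDN numbered 14 at equal scale, against 15.8% of all features. By the rule of 2-fold with arrays not overlapping they numbered 2, against 6.16%. Mitochondrial ones numbered 2 under median centring, with 1 array per medium admitted, under the replicate block or a robust prior. Over all features 11.4% to 16.9% were lower in those settings. Calls for the difference were lost in both groups with any 1 array left out.

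The cytosolic median in MDN was -0.97 under median centring, -1.14 at equal scale, and -1.03 without the dual enzymes or without GRS2 and ARC1. Leaving out 1 array gave -0.92 to -0.92 there, and -0.56 to -0.29 for YPD. The mitochondrial median in MDN was -0.17 at equal scale and turned sign with 1 array left out, from -0.089 to 0.014. For MDN over SCD at equal scale the cytosolic median was 0.41 and 1 gene was at least 2-fold higher; at 1.5-fold it was 2 cytosolic genes higher and 1 mitochondrial gene lower. For SCD over YPD, 1.5-fold gave 2 cytosolic genes lower and 2 mitochondrial genes higher. No member's called value changed sign under the alternatives run. The differences of GLN4, MSE1 and MSK1, none of which passed, turned to -0.35, 0.0081 and -0.0745 at equal scale, and that of MSK1 to -0.037 under median centring. Leaving out 1 array turned the sign of further values that had not passed. In MDN they ran from -0.12 to 0.0704 for ALA1, from -0.56 to 0.0144 for ISM1, from -0.38 to 0.0566 for MST1 and from -0.074 to 0.0426 for SLM5. In YPD they ran from -0.97 to 0.71 for CDC60, -0.074 to 0.0144 for TYS1, -0.0439 to 0.12 for MSD1, -0.22 to 0.0144 for MSK1, -0.074 to 0.34 for MSR1 and -0.074 to 0.0566 for MST1. For the difference they ran from -0.25 to 0.0289 for MES1, -0.43 to 0.14 for ISM1, -0.195 to 0.132 for MSE1, -0.10 to 0.13 for MSK1, -0.0683 to 0.0171 for MSM1, -0.043 to 0.38 for MSR1 and -0.37 to 0.0653 for MST1. The cause of these shifts was not tested.

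Arrays of the same number did not deviate together (r = -0.103 over 5488 features), so the numbers are not taken to pair the arrays. With the replicate block 6 cytosolic genes were lower in MDN than in YPD, against 11.4% of all features. With the crossed replicate block, added after seeing the data, 7 were lower, against 12.8%, and HTS1 no longer passed. With the replicate block GUS1, KRS1, MSE1 and DIA4 no longer passed in MDN, DPS1 no longer passed in YPD, and for the difference TYS1 and GRS2 no longer passed while MSF1 did; it changed no other member's call. The replicate and crossed blocks gave 17 and 17 cytosolic genes that fell in MDN, against 21.2% and 22.3% of all features.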

Other observations

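DED81 and YHR020W are neighbours in the RefSeq gene table, the only such pair among the 34 members, and their systematic names place them on opposite strands with starts facing the same gap. They read -1.47 ± 0.08 and -1.76 ± 0.08 after rapamycin in MDN. Of the 20 cytosolic genes with a value for SCD over YPD, they were the 2 at least 1.5-fold lower in SCD, at -0.84 and -0.82. Over all features 8.96% were, and FRS2 had no such value. Each such value is a difference of 2 arrays without replicates. After rapamycin in YPD the pair parted, with -0.16 ± 0.08 for DED81, which did not pass, and -1.06 ± 0.08 for YHR020W, which fell (limma adjusted p = 0.000306). Whether probes or transcripts of these genes overlap was not tested.

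The synthetases fall into structural classes I and II. In the cytosolic group 7 of 8 class I genes fell in MDN, with a median of -0.92, and 10 of 12 class II genes, with a median of -0.97, against 23.3% of all features. In YPD 4 of 8 and 7 of 12 fell, against 32.0%. A difference between media passed for 2 of 8 class I genes, ILS1 and TYS1, and for 6 of 12 class II genes, against 29.5% of all features; the difference between the classes was not tested.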
